A study of Drosophila melanogaster with 6 samples.

Results

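The genes described here encode structural proteins of the insect cuticle. They were taken by name: a probe set was a member if the platform annotation paired it with exactly 1 gene whose current symbol starts with Cpr and a number, Ccp84, Lcp, Twdl or Edg, or is Pcp or Acp1. This gave 98 probe sets of 92 genes among the 14010 rows of the table, 13966 of which are not control probe sets. The Cpr genes made up 60 probe sets, the Tweedle (Twdl) genes 24, the Lcp genes 5, the Ccp84 genes 4 and the Edg genes 3, and Pcp and Acp1 had 1 each. RefSeq lists 125 genes whose symbols meet the rule, and 33 of them, among them Lcp1 to Lcp4, had no probe set of their own and were not analysed here.

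The cuticle is a layered coat of chitin fibres and proteins that the epidermis secretes, and it is rebuilt at each molt, the last of which gives the adult cuticle. Proteins of the Cpr, Ccp84 and Lcp65A groups carry the chitin-binding Rebers-Riddiford domain, and the Tweedle proteins are a separate cuticle family named after a mutation that makes larvae short and stout. Larvae, pupae and adults use partly different members, and most are made in a burst around the molt in which that cuticle is laid down. In a male some days after eclosion, the cuticle is still being thickened.

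The samples were 6 pools of about 12 whole males of the wild-type strain Canton-S, all virgin and 4 days old, each pool hybridized to 1 Affymetrix Drosophila version 1 array. All males were raised at 25 °C with at most 20 together and were housed singly from day 3. The 3 exposed pools held males that had courted a virgin female, aspirated into their vial, during 5 min and had not mated. The 3 unexposed pools held males that were mock aspirated and met no female. Pairs were observed at a lower temperature than that of rearing. Only robust courters were collected for the exposed pools, while for the unexposed pools no selection on behaviour is described, so exposure and selection cannot be told apart. The methods state that exposed and unexposed groups were collected in parallel and tested as pairs, and pools with the same replicate number (1 to 3) were taken as the pairs. The sources do not tie the numbers to the collections, and for replicates 2 and 3 this pairing is an assumption that the signals did not bear out. The p-values measure only the spread between these pools, and in whole bodies fewer cells of a type and less RNA per cell cannot be told apart.

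The values were 1 signal per probe set and array, in intensity units on a linear scale. Array medians ran between 107 and 133, and each array had from 49 to 364 values listed at 0. Of the marker genes with a probe set, 8 of 8 of accessory gland and 8 of 8 of testis had signals above the filter used below. In these males 5 of 8 ovary and eggshell markers passed it too, and 0 of 5 larval glue markers did. A signal above the filter is therefore not by itself taken as expression. Both replicate 1 arrays stood apart from the other 4 arrays. On exposed 1 and unexposed 1 the ratio of the 3' to the 5' probe set of GAPDH was 5.80 and 1.93, against 1.30 to 1.52 on the other arrays, and the ratio for ACTIN was 17.8 and 5.79, against 2.19 to 2.36. For eIF-4a the ratio on exposed 1 was 11.3 and that on unexposed 1 was 1.9996, while replicates 2 and 3 had 1.65 to 1.95, so by this gene unexposed 1 lay close to them. The methods name 2 facilities for labelling and hybridization, and which arrays each of them handled is not given in the sources used here. Signals are therefore given by replicate, and ratios that replicate 1 moves most are given without it too.

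A minority of the cuticle protein probe sets had signals above the filter in these adults. The study's filter asks for a signal of 100 or more on 3 or more of the 6 arrays, and 41 of 98 passed it (41.8%), beside 59.1% of all 13966 probe sets. On all 6 arrays 32 were at 100 or more, and 20 were below 100 on every array. Another 36 reached 100 only on a replicate 1 array. The number at 100 or more was accordingly 62, 38 and 36 on exposed 1, 2 and 3, against 73, 37 and 39 on unexposed 1, 2 and 3. Against the median of the 23 control probe sets for bacterial, yeast and mouse sequences on the same array, the order was the other way round: 69, 86 and 88 members were above it on the exposed arrays and 76, 88 and 85 on the unexposed arrays. Those foreign controls had a median signal of 80.1, 31.3 and 25.3 on the exposed arrays, against 81.0, 22.9 and 27.2 on the unexposed arrays. The highest of them read from 1500 on unexposed 3 to 4243 on exposed 1, so not all of them gauge background. Without the replicate 1 arrays, 37 members were at 100 or more on at least 2 of the remaining arrays.

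Members of every family but Pcp passed the filter: of the Cpr probe sets 24 of 60 did, of the Tweedle probe sets 10 of 24, of Ccp84 3 of 4, of Lcp 2 of 5 and of Edg 1 of 3. Acp1, whose name stands for adult cuticle protein, passed, and Pcp, a pupal cuticle protein gene, did not. Pcp read 148, 94.7 and 82.8 on exposed 1, 2 and 3 and 202, 88.4 and 70.8 on unexposed 1, 2 and 3, so it was over 100 on the replicate 1 arrays alone. The Edg genes take their name from their dependence on ecdysone, the molting hormone. Edg78E was the member that passed, with 26.5, 118 and 106 in exposed pools and 31.8, 119 and 102 in unexposed pools. Edg84A read 111, 55.6 and 66.2 in exposed pools against 116, 52.8 and 54.9 in unexposed pools. Edg91 read 65.3, 42.7 and 46.4 in exposed pools against 84.7, 36.3 and 44.7 in unexposed pools. Edg78E was thus low and the other Edg genes high on replicate 1.

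Signals of different probe sets cannot be set against each other, as the genes with more than 1 member probe set show. There are 6 of them: Cpr73D, Cpr66D, TwdlJ, TwdlM, TwdlN and TwdlT. On exposed 1 the brighter probe set of TwdlN read 3415 and its other probe set 12.3. For TwdlJ the values were 2098 and 49.0. The brighter probe set of TwdlN has the suffix the manufacturer gives to probes shared with similar sequences, so its signal may not come from that gene alone. The probe sets of TwdlJ and TwdlM carry other suffixes, _i_at and _r_at, and not the plain _at of most members, so their levels call for care too. A further 7 probe sets were annotated to several genes of which 1 or more belonged to these families, and were not counted.

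None of the 41 cuticle protein probe sets above the filter was called between exposed and unexposed males in the limma test of the deposited signals, while some other settings, given below with each gene, called Cpr49Ab or Lcp9 at an unadjusted p under 0.05. In the limma fit across all 8251 probe sets above the filter, none of the 41 members was called higher or lower at an unadjusted p under 0.05, beside 0.376% of all probe sets called higher and 2.12% called lower. At the study's threshold of an unadjusted p under 0.001, no member was called, beside 0% higher and 0.0242% lower over the array, and a Benjamini-Hochberg adjusted p under 0.05 was reached by no probe set of any kind. The smallest adjusted p of a member from limma was 0.905, and the smallest unadjusted one was 0.0841. The Cyber-T test named in the methods, written anew, called 1 member higher at an unadjusted p under 0.05 and none at an adjusted p under 0.05. The standard error of a member's mean log2 ratio had a median of 0.15 and was at most 0.2 for 34 of 41.

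The members' ratios lay close to those of the whole array. Their median log2 ratio, exposed over unexposed, was -0.07, and over all probe sets tested it was -0.09. By pair the members' medians were -0.18, 0.04 and -0.03 for pairs 1, 2 and 3, and those of all probe sets were -0.21, -0.08 and 0.05. The mean ratio was above 0 for 15 members and below 0 for 26. That split depended on the scaling, being 24 above and 17 below after quantile normalization and 27 above and 14 below after median centring, and without replicate 1 it was 21 above and 20 below. Median centring moved the median ratio of all probe sets by 0.11, and it turned the members' median to 0.04. Over the whole array the calls at an unadjusted p under 0.05 were 31 higher and 175 lower on the deposited scale, 146 and 120 after quantile normalization and 127 and 102 after median centring. Of the tested members, 3 of 41 were higher in 3 of 3 pairs and 7 of 41 were lower in 3 of 3 pairs, beside 6.23% and 18.4% of all probe sets tested.

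**Figure D1:**
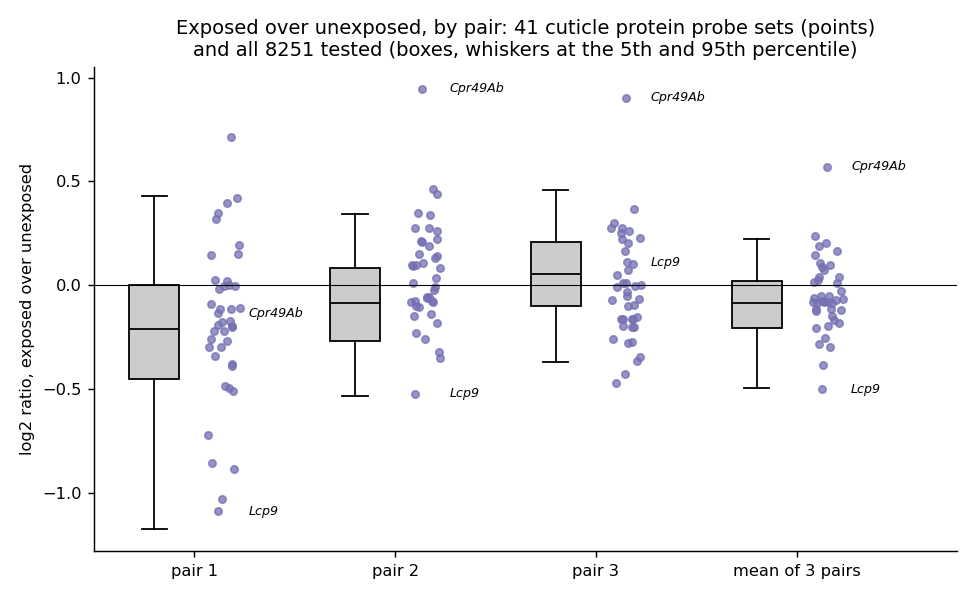
Log2 ratio of exposed over unexposed signal for each pair and for the mean of 3 pairs. Points are the 41 cuticle protein probe sets above the filter, and boxes show all 8251 probe sets tested (median, middle 50% and whiskers at percentiles 5 and 95). Cpr49Ab sits at 0.95 and 0.90 in pairs 2 and 3 but at -0.13 in pair 1.

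Cpr49Ab (CG30042), a Rebers-Riddiford protein gene, had the highest mean ratio of the tested members. The study lists it as up-regulated in courting males, at an unadjusted p under 0.001 by Cyber-T in each of its expression summaries. With the deposited signals it was not called at that threshold in the main fit or in any alternative. Its signals were 228, 529 and 725 in exposed pools 1, 2 and 3 and 250, 275 and 388 in unexposed pools 1, 2 and 3. In pairs 2 and 3 the exposed pool was clearly the higher one, in pair 1 it was slightly the lower one, and the treatments overlapped. The ratios by pair were -0.13, 0.95 and 0.90 on the log2 scale, with a mean of 0.57 (standard error 0.26, with an adjusted p of 0.905 from limma). Over the alternatives its log2 ratio ranged between 0.38 and 0.92 and its adjusted p from limma or Cyber-T between 0.707 and 0.9999. Without replicate 1 the log2 ratio was 0.92, past an unadjusted p under 0.05 but with an adjusted p of 0.844 from limma. It was also the member that passed an unadjusted p under 0.05 after quantile normalization, after median centring and by Cyber-T.

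Of its neighbours in the 49A group of Cpr genes, Cpr49Ae and Cpr49Ac were tested and did not share these values. Cpr49Ae read 637, 753 and 741 in exposed pools and 576, 596 and 736 in unexposed pools. This was the steadiest tested member over the replicates, and the exposed pool was the higher in every pair, by little in pair 3. Its mean log2 ratio was 0.16 (standard error 0.13, adjusted p = 0.905 from limma), and 0.08 without replicate 2. Cpr49Ac read 172, 119 and 133 in exposed pools and 318, 116 and 133 in unexposed pools, a mean log2 ratio of -0.28. That value came from pair 1, and the ratio was 0.02 without replicate 1 and -0.44 without replicate 2.

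At the low end, Lcp9 had the lowest mean ratio of the tested members. It read 101.1, 71.9 and 98.9 in exposed pools and 215, 103 and 91.6 in unexposed pools, around the filter value of 100 on most arrays. The exposed pool was lower in pairs 1 and 2 and slightly higher in pair 3, giving a mean log2 ratio of -0.50 (standard error 0.26, adjusted p = 0.905 from limma). It was -0.21 without replicate 1. Without replicate 3 it was -0.80, and this was the only fit with the filter in which a member was called lower at an unadjusted p under 0.05. Twdlalpha, a Tweedle gene, read 138, 122 and 104 in exposed pools and 282, 110 and 126 in unexposed pools. Lcp65Aa, of the Lcp65A group, read 952, 325 and 407 in exposed pools and 1723, 389 and 349 in unexposed pools. In both genes unexposed 1 stood far above the other arrays, with exposed 1 next. The mean log2 ratio of Twdlalpha was -0.38, and it was -0.06 without replicate 1 and -0.65 without replicate 2. That of Lcp65Aa was -0.30, and it was -0.02 without replicate 1 and -0.56 without replicate 3.

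Other tested members near the high end were Cpr73D and Cpr64Ab. In Cpr73D the exposed pool was the higher of each pair, at 1271, 276 and 251 against 964, 257 and 234 in unexposed pools. The difference between treatments was small beside that between replicate 1 and the others, with a mean log2 ratio of 0.20 (standard error 0.13, with an adjusted p of 0.905 from limma). Without replicate 1 it was 0.11. Its dimmer probe set had a mean ratio of -0.06. Cpr64Ab read 1815, 435 and 496 in exposed pools and 1424, 453 and 410 in unexposed pools, a mean log2 ratio of 0.19, which was 0.11 without replicate 1 and 0.31 without replicate 2. TwdlM had 1 probe set at -0.03 and another at 0.24, which differ in direction.

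No tested member had exposed and unexposed signals that did not overlap, beside 0.255% of all probe sets tested with the exposed pools higher and 1.76% with them lower. Among the members below the filter there were 3, 1 higher and 2 lower, beside 0.351% and 1.93% of all 13966 probe sets. Lcp65Ac read 47.0, 45.4 and 56.9 in exposed pools and 44.2, 37.1 and 33.7 in unexposed pools. TwdlT read 65.3, 56.1 and 77.1 on 1 of its probe sets in exposed pools and 110, 79.8 and 86.5 in unexposed pools. Cpr31A read 42.3 and 41.6 in exposed pools 2 and 3 and was listed at 0 in exposed 1, while unexposed pools 1, 2 and 3 read 361, 51.6 and 48.1. Apart from Cpr31A and TwdlT on unexposed 1, all of these signals were below 100, and TwdlT's other probe set overlapped between treatments. With no filter on signal, the test called 1 member higher and 1 lower at an unadjusted p under 0.05, beside 0.544% and 2.13% of all 13966 probe sets. The higher one was Cpr47Eb, at 277, 33.5 and 27.1 in exposed pools and 80.5, 15.9 and 15.8 in unexposed pools. The lower one was Cpr35B, at 13.8, 47.0 and 24.9 in exposed pools and 20.6, 53.5 and 43.7 in unexposed pools. The exposed pool of Cpr47Eb was the higher of each pair and that of Cpr35B the lower, while the treatments overlapped in both genes. Both were chosen after their values were seen, and both had an adjusted p of 0.920 from limma.

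Within replicates 2 and 3 alone, 7 of 41 members had both exposed pools above both unexposed pools, beside 16.2% of all probe sets tested, and 6 had both below, beside 19.1%. The 7 were Cpr49Ab, Cpr49Ae, Cpr67B, Ccp84Ag, TwdlD, TwdlJ and TwdlO. Most of these differences were small: Cpr67B read 515 and 571 in exposed pools and 430 and 488 in unexposed pools. The 6 below were Cpr23B, Cpr47Ef, Cpr64Aa, Cpr65Ec, Cpr97Ea and TwdlN.

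Within families the mean ratios of the tested members lay on both sides of 0 for Cpr, Twdl and Ccp84. The highest mean signals of the Ccp84 genes, which lie in a cluster on chromosome arm 3R, were those of Ccp84Ae, Ccp84Ag and Ccp84Ad. Ccp84Ae read 1028, 306 and 314 in exposed pools and 1031, 304 and 351 in unexposed pools, a mean log2 ratio of -0.05, with the treatments nearly level within each pair. Ccp84Ag read 557, 265 and 264 in exposed pools against 629, 227 and 251 in unexposed pools, a ratio of 0.04. Ccp84Ad read 461, 299 and 263 in exposed pools against 537, 271 and 277 in unexposed pools, a ratio of -0.05. Its probe set has the same suffix for shared probes as the brighter one of TwdlN, so its signal may not come from that gene alone. In these genes the treatments overlapped and replicate 1 was the highest array of each. Ccp84Ac, below the filter, was listed at 0 on exposed 1 and read 171 on unexposed 1.

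Among the Cpr genes, Cpr64Ac, Cpr72Ea and Cpr5C had the highest mean signals. Cpr64Ac read 3090, 1016 and 945 in exposed pools and 3125, 1268 and 966 in unexposed pools, a mean log2 ratio of -0.12 (standard error 0.13, adjusted p = 0.911 from limma). Cpr72Ea read 2590, 921 and 757 in exposed pools and 2073, 1013 and 842 in unexposed pools, with a ratio of 0.01. Cpr5C read 1617, 855 and 962 in exposed pools against 1985, 948 and 804 in unexposed pools, with a ratio of -0.06. In all of these genes replicate 1 was the highest array of its treatment.

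Among the Tweedle genes the brightest probe sets were those of TwdlN, TwdlJ and TwdlM. TwdlN read 3415, 1238 and 1066 in exposed pools and 3080, 1309 and 1275 in unexposed pools, a mean log2 ratio of -0.06. TwdlJ read 2098, 578 and 592 in exposed pools and 2360, 529 and 527 in unexposed pools, a ratio of 0.04. TwdlM read 974, 292 and 242 in exposed pools and 1196, 241 and 254 in unexposed pools, a ratio of -0.03. Here too both replicate 1 arrays lay above the other 4, and the treatments overlapped.

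**Figure D2:**
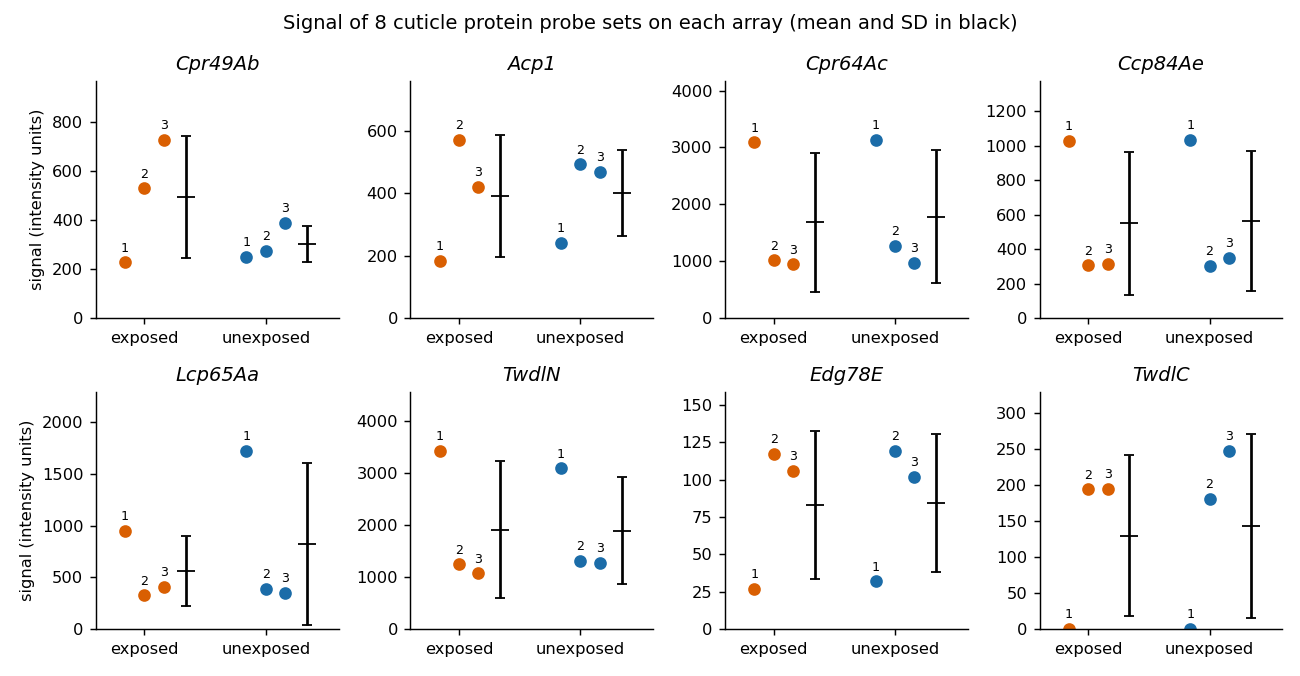
Signal in intensity units (linear axes from 0) of 8 cuticle protein probe sets on the 3 exposed and the 3 unexposed arrays. Points carry their replicate number, and black marks give the mean and SD of each treatment. Cpr64Ac, Ccp84Ae, Lcp65Aa and TwdlN were highest on replicate 1, and Acp1, Edg78E, TwdlC and Cpr49Ab lowest.

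The largest differences among these genes were between replicate 1 and the other replicates, in both treatments. The log2 signal of exposed 1 minus the mean of exposed 2 and 3 had a median of 1.14 over the 98 members, and the same for unexposed had a median of 1.33. Over all 13966 probe sets these medians were -0.30 and -0.09. The difference exceeded 2-fold upwards in both treatments for 49 of 98 members (50%), beside 19.8% of all probe sets, and downwards for 4, beside 23.6%. Both replicate 1 arrays were above the other 4 arrays for 73 members, beside 36.4%, and below them for 13, beside 45.1%. Replicates are numbered without order and the labels give no batch, so these values are a description with no test. Among the 41 members above the filter 25 were over 2-fold higher on replicate 1, beside 14.8% of those tested, and 3 were over 2-fold lower, beside 29.9%, and the medians were 1.39 for exposed and 1.44 for unexposed pools.

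**Figure D3:**
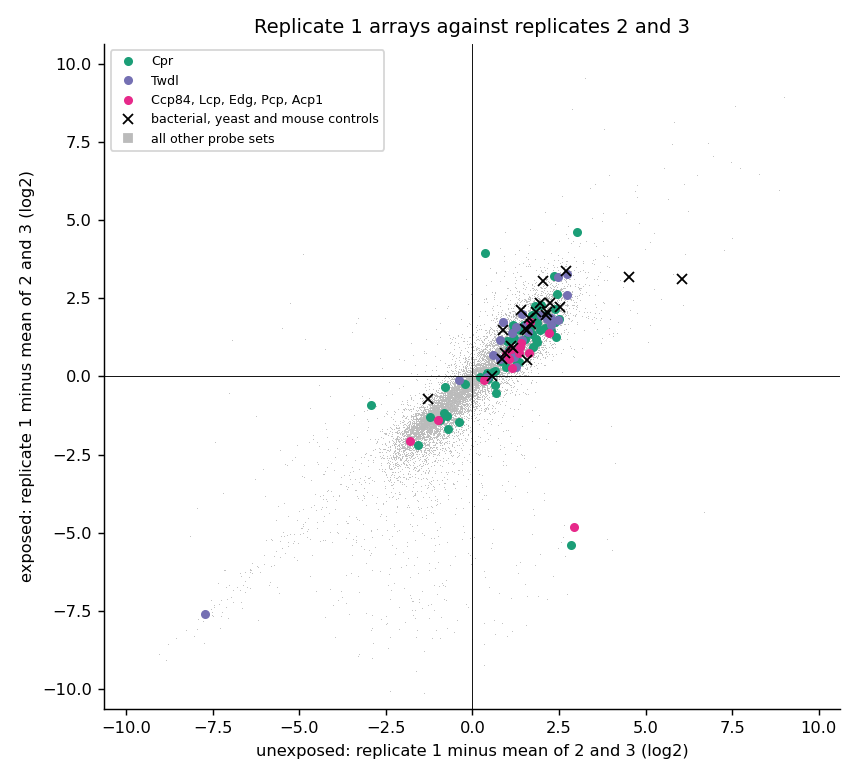
Log2 signal of replicate 1 minus the mean of replicates 2 and 3, in exposed pools (vertical axis) and unexposed pools (horizontal axis). Coloured points are the 98 cuticle protein probe sets by family, crosses the 23 foreign controls and grey points the remaining probe sets. Most members lie in the upper right with most of the foreign controls; TwdlC, listed at 0 on both replicate 1 arrays, lies at the lower left, and Cpr31A and Ccp84Ac, listed at 0 on exposed 1, at the lower right.

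Every family with more than 1 probe set was higher on replicate 1 by its median. For exposed and unexposed pools the medians were 1.19 and 1.34 for Cpr, 1.50 and 1.35 for Twdl, 0.90 and 1.53 for Ccp84, 0.75 and 1.37 for Lcp and 0.55 and 1.07 for Edg. Clusters of neighbouring genes held few probe sets each, and whether they differ in this was not tested. In the 64A cluster 4 of 4 probe sets were over 2-fold higher on replicate 1 in both treatments, in the 78C cluster 3 of 3 and in the 47E cluster 5 of 7. The 62B cluster had 0 of 3, and its medians were -0.01 and 0.22. The clusters in between had 2 of 6 (49A), 2 of 5 (65A), 2 of 3 (72E), 2 of 4 (76B), 2 of 4 (84A) and 1 of 3 (65E).

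A run of 13 Tweedle genes with only 2 other protein-coding genes among them lies on arm 3R, and 11 of them had a probe set of their own. Of their 14 probe sets, 9 were over 2-fold higher on replicate 1 in both treatments and the medians were 1.61 for exposed and 1.44 for unexposed pools. TwdlP was the member of the run that went the other way, at 44.5, 45.3 and 50.3 in exposed pools and 40.0, 50.7 and 52.9 in unexposed pools. At one end of the run TwdlM was 3.66-fold higher on exposed 1 and 4.83-fold higher on unexposed 1, and at the other end TwdlQ read 52.1, 24.9 and 21.8 in exposed pools and 56.4, 33.1 and 31.4 in unexposed pools. Both replicate 1 arrays of TwdlQ were the highest, by less than 2-fold in the unexposed pools.

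**Figure D4:**
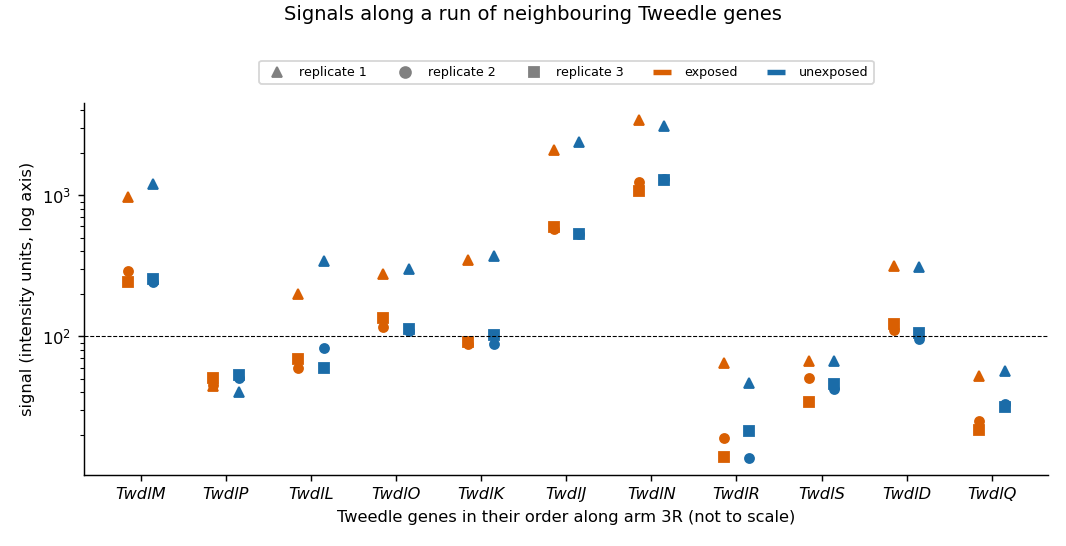
Signal (intensity units, log axis) of the 11 Tweedle genes of the run on arm 3R that had a probe set of their own, in gene order and not to scale; each gene is shown by its brightest probe set. Symbols mark the replicate and colours the treatment, and the dashed line marks a signal of 100. For each gene but TwdlP the triangles of replicate 1 lie above the other symbols, while levels of different genes cannot be compared.

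The tested members with the largest spread over replicates were TwdlC, Cpr11B, Cpr73D and TwdlM, and those with the smallest were Cpr49Ae, Cpr67B, Cpr47Ef and Lcp9. Cpr11B read 929, 224 and 191 in exposed pools and 1178, 210 and 246 in unexposed pools. Cpr47Ef read 122.9, 165 and 144 against 107, 171 and 200. The SD of log2 signal within a treatment, averaged over both treatments, had a median of 0.81 over the members and 0.66 over all probe sets. Between replicates 2 and 3 the median absolute log2 difference, without regard to direction, was 0.22 in exposed and 0.22 in unexposed pools over the members. Over all probe sets it was 0.18 and 0.18.

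Members that were lower on replicate 1 in both treatments numbered 14. Acp1 read 184, 569 and 419 in exposed pools and 241, 492 and 469 in unexposed pools, with a mean log2 ratio of -0.11 between treatments (standard error 0.16, with an adjusted p of 0.924 from limma). Its replicate 1 signal was 0.38-fold that of replicates 2 and 3 in exposed pools and 0.50-fold in unexposed pools. Cpr51A read 28.3, 111 and 148 in exposed pools and 39.8, 116 and 120 in unexposed pools, both replicate 1 arrays being far below the rest. Cpr67Fb read 307, 622 and 778 in exposed pools and 357, 513 and 771 in unexposed pools. The largest such gap was that of TwdlC, which was listed at 0 on both replicate 1 arrays and read 194 and 195 in exposed pools 2 and 3 and 181 and 248 in unexposed pools 2 and 3. No fold is given for it. In all, 5 members were listed at 0 on 1 or more arrays.

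Other values moved with replicate 1 as well, and their part in the members' difference was not tested. Of the 23 foreign controls, 22 were higher on replicate 1 in both treatments, 15 of them over 2-fold, with medians of 1.87 in exposed and 1.63 in unexposed pools. Probe sets of eggshell genes, which ovaries express, were over 2-fold higher on replicate 1 for 6 of 8 genes, and their summed signal was 7970, 3329 and 2979 on exposed arrays and 7502, 3400 and 2914 on unexposed arrays. The 5 larval glue gene probe sets, with 4 over 2-fold higher, summed to 675, 209 and 147 on exposed arrays and 599, 207 and 230 on unexposed arrays. None of these genes was listed at 0 on any array. Male and adult tissue markers did not move in this way: the medians in exposed and unexposed pools were 0.00 and 0.06 for accessory gland, 0.11 and 0.27 for testis, -0.31 and 0.02 for flight muscle and -0.29 and -0.11 for photoreceptors. The fat body and haemolymph list, which holds the yolk protein genes Yp1, Yp2 and Yp3, had medians of 1.48 and 1.25. Its genes did not move together, so these medians are not taken to describe the fat body of males. In both treatments 3 of 7 (Yp1, Yp2 and Fbp1) were over 2-fold higher on replicate 1. Lsp2 was over 2-fold lower, at -2.68 and -1.37, and apolpp, the brightest of them, differed by 0.22 and 0.40.

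Gene length was another feature that the members shared, with a median of 1107 bp from RefSeq against 2745 bp over all probe sets with 1 gene. Within the shortest length class of genes (177 to 1462 bp), 36 of 67 members (53.7%) were over 2-fold higher on replicate 1 in both treatments, beside 19.2% of the other genes of that class. The medians there were 1.19 and 1.40 for members and -0.40 and -0.19 for the others, in exposed and unexposed pools.

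**Figure D5:**
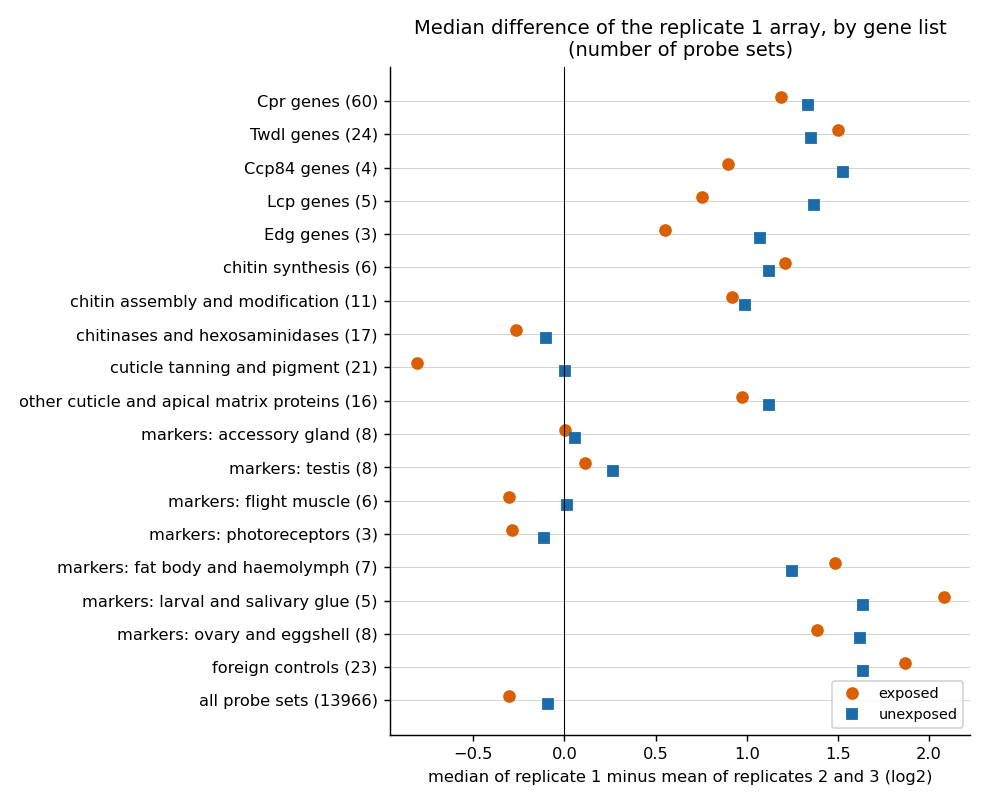
Median log2 difference of replicate 1 from the mean of replicates 2 and 3, in exposed pools (circles) and unexposed pools (squares), by gene list, with the number of probe sets in brackets. The cuticle protein families, other cuticle and apical matrix proteins and chitin synthesis and assembly genes lie to the right of 0. So do the eggshell and larval glue genes, the fat body list with its yolk protein genes, and the foreign controls. The medians of tanning genes, of the chitinase and hexosaminidase list and of the other markers of male and adult tissues lie near or left of it.

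Genes that act beside the cuticle proteins were not called either, with 0 higher and 0 lower at an unadjusted p under 0.05 in each of 5 lists. Of the chitin synthesis genes 4 were tested, with a median log2 ratio of 0.00. In 1 of them, Gfat2, all exposed signals lay below all unexposed ones, and in none did they lie above. The shares over all probe sets tested were 1.76% and 0.255%. Gfat2 read 117, 172 and 177 in exposed pools and 206, 198 and 184 in unexposed pools (log2 ratio -0.36, adjusted p = 0.905 from limma). Mummy (mmy), which makes the activated sugar for chitin, read 2102, 864 and 835 in exposed pools and 1744, 829 and 873 in unexposed pools, a log2 ratio of 0.09. The gut chitin synthase gene Chs2 read 510, 129 and 105 in exposed pools and 551, 130 and 117 in unexposed pools, a log2 ratio of -0.09. Like most cuticle proteins, mmy and Chs2 were highest on replicate 1. Over the 6 probe sets of the list the median replicate 1 difference was 1.21 in exposed and 1.12 in unexposed pools. Over the 4 tested genes it was 0.36 and 0.57. In both treatments 4 of the 6 were over 2-fold higher on replicate 1 and 1 was over 2-fold lower. The lower one was Gnpnat, at 40.8, 263 and 230 in exposed pools and 43.9, 231 and 197 in unexposed pools.

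For chitin assembly and modification 7 genes were tested, with a median log2 ratio of 0.06. The chitin deacetylase gene serp read 810, 358 and 332 in exposed pools and 756, 271 and 264 in unexposed pools and was higher in 3 of 3 pairs, with a log2 ratio of 0.28 (standard error 0.13, adjusted p = 0.905 from limma). Both obst-A and Gasp encode chitin-binding proteins. The signals of obst-A were 76.8, 280 and 335 in exposed pools and 80.4, 192 and 252 in unexposed pools. Gasp read 96.4, 286 and 323 in exposed pools and 104, 263 and 287 in unexposed pools, so that both were lowest on replicate 1. This list therefore held genes both high and low on replicate 1, with medians of 0.92 and 0.99. Among other cuticle and apical matrix proteins 7 were tested, with a median log2 ratio of -0.16. Over the 16 probe sets of this list the replicate 1 medians were 0.97 in exposed and 1.12 in unexposed pools. In both treatments 8 of the 16 (50%) were over 2-fold higher on replicate 1, beside 50% of the cuticle protein members, and 1 was over 2-fold lower. Vajk2 read 3023, 1648 and 1566 in exposed pools and 3548, 1745 and 1761 in unexposed pools, lower in 3 of 3 pairs at -0.16 (standard error 0.12, adjusted p = 0.905 from limma).

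The list of chitinases and hexosaminidases, which also holds the chitinase-like Idgf genes, and the tanning list had genes both higher and lower on replicate 1. Their difference from the cuticle proteins was not tested. The chitinase and hexosaminidase list had 12 tested genes, a median log2 ratio of -0.19, and replicate 1 medians of -0.27 and -0.10 in exposed and unexposed pools, with 3 of 17 probe sets over 2-fold higher there in both treatments (Cht6, Cht7 and Cht10, which was listed at 0 on 3 arrays, all named after their values were seen). Idgf4, a chitinase-like growth factor, read 2534, 2534 and 2813 in exposed pools and 3074, 2231 and 2520 in unexposed pools. The tanning and pigment list had 13 tested genes, a median log2 ratio of -0.09, and replicate 1 medians of -0.81 and 0.00, with 3 of 21 probe sets over 2-fold higher there in both treatments (y, AANATL2 and PPO3, likewise). Both replicate 1 arrays were above the other 4 for 8 of the 21. Ddc, dopa decarboxylase, read 802, 1044 and 1071 in exposed pools and 1131, 1068 and 1348 in unexposed pools and was lower in 3 of 3 pairs, with a log2 ratio of -0.29 (standard error 0.15, adjusted p = 0.905 from limma).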

How the data were processed

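Whole-male RNA of 3 exposed and 3 unexposed pools was measured on 6 one-colour arrays. For every array the authors deposited an intensity per probe set. GCOS 1.2 is named in the submitters' processing notes, and the methods list 2 further summaries, dChip with perfect-match probes alone and dChip with mismatch probes subtracted. Not given in the sources used here are the summary that these intensities hold and the scaling target. Among 14010 rows, 12444 have 1 gene in the annotation, 327 have several and 1239 have none here. Names follow RefSeq, which was used for symbols, chromosome arm, gene length and gene order only, and no coordinates are given because the builds differ.

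Signals were floored at 1 and log2 transformed without further scaling. The treatments were tested with limma 3.58.1 (R 4.3.3, lmFit and eBayes) and replicate number as a block, on the 8251 non-control probe sets that reached 100 on 3 or more arrays. The methods state this filter, collection in parallel and a paired test. In a check of the pairing, arrays with the same number deviated together from their group means (correlations 0.84, 0.76 and 0.78). Replicate 1 carries these values: the difference between replicates 2 and 3 correlated at -0.33 across treatments. The number of arrays limits the precision. Both tests were tested on simulated data with known changes. Those data held no shift of the replicate 1 signals, so the check does not cover that feature of these arrays. The paired Cyber-T test was rewritten, with 10 prior observations and a window of 101 probe sets.

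The members and gene lists were chosen with earlier results of these data known. Genes named are Cpr49Ab, Acp1 and Pcp; members past an unadjusted p under 0.05 or with no overlap between treatments; the 4 highest and 4 lowest mean ratios; the 3 highest mean signals per family; the 4 largest and 4 smallest spreads; tested members listed at 0; and up to 4 genes of each other list. Genes named beyond this (those of the replicate 1 description, of the comparison within replicates 2 and 3, and of the test with no filter) were chosen after their values were seen. Where a gene had several probe sets, its brightest one is given. No protein or promoter sequences were used here, so sequence features were not analysed.

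Alternatives left out the block or each replicate, or used another normalization, filter, floor, variance model or test. After the data were seen, a fit taking replicate 1 as a batch was added, as were all alternatives for the replicate 1 differences.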

Additional observations from a re-analysis of the deposited data

How the results depend on the processing

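The members' count of calls at an unadjusted p under 0.05 stayed at 0 higher and 0 lower with no replicate block, with a signal of at least 200, with the signal floor at 50, with 32 added and with the replicate 1 arrays as a batch. It was 1 higher after quantile normalization, after median centring, with no filter and by Cyber-T, and 1 lower with no filter; leaving out 1 replicate gave 0 to 1 higher and 0 to 1 lower. Over the whole array, 31 higher and 175 lower became 0 and 10 with no replicate block, 127 and 102 after median centring, 76 and 297 with no filter, 19 and 115 with a signal of at least 200 and 75 and 392 with the replicate 1 arrays as a batch. The higher calls were 146 after quantile normalization and the lower ones 281 by Cyber-T. Leaving out 1 replicate gave 14 to 128 higher and 97 to 255 lower, the 14 without replicate 3, the 128 without replicate 1 and the 97 without replicate 2. At an unadjusted p under 0.001 the 2 calls became 1 with no replicate block or after quantile normalization, 5 with no filter or the batch, 4 with the floor at 50 or 32 added and 21 by Cyber-T, and 0 to 14 without 1 replicate (14 without replicate 1, 0 without replicate 3). At an adjusted p under 0.05 there was 1 call by Cyber-T and 0 to 2 without 1 replicate (2 without replicate 1). The cause of these changes was not tested.

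The members' median log2 ratio lay between -0.10 and 0.04 over all alternatives. Each alternative was also run for 10 named genes. Of these, the ratios that changed sign were Acp1 (-0.275 to 0.0228 without 1 replicate, the highest without replicate 1), Cpr49Ac (-0.442 to 0.0185, likewise) and TwdlC (-0.172 to 0.0492, the highest without replicate 3, and 0.175 after quantile normalization and 0.0244 after median centring). Over all 41 tested members, 26 mean ratios were below 0, which became 17 after quantile normalization, 14 after median centring, and 20 to 31 without 1 replicate (20 without replicate 1). The 41 members above the filter became 25 at a signal of 200, 75 at a signal of 50, 65 above the foreign control median on all 6 arrays, and 37 to 64 without 1 replicate; fewer arrays make the filter of 3 arrays a different one. The members' median replicate 1 difference of 1.14 in exposed pools was 1.254 after quantile normalization, 1.37 after median centring, 0.83 with the floor at 50, 0.66 with 32 added, 1.39 over members above the filter and 1.03 to 1.07 against 1 other replicate. In unexposed pools 1.33 was 1.197 with the floor at 50, 1.07 with 32 added, 1.44 above the filter and 1.29 to 1.36 against 1 other replicate.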
